A study of Drosophila melanogaster with 30 samples.

Results

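Wing imaginal discs of delta-POZ larvae were compared with discs of Halo-Trl larvae by RNA-seq, across every gene with enough reads to test. The comparison used 6 of the 30 samples of the series, 3 libraries per genotype, and 10359 of the 17868 genes in the count table passed the filter on low counts. In delta-POZ, Halo-tagged GAF lacks its POZ domain; in Halo-Trl, the tagged protein is full length. Each replicate was total RNA of 30 discs from wandering late larvae, and the labels call the replicates biological. The labels do not give the other alleles of the lines, so differences between the lines other than the deletion are confounded with it and cannot be told apart. The delta-Q line of the same experiment (Halo-tagged GAF without its Q domain, 3 libraries) shares the estimate of the spread and is given as values where it helps to place a gene.

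GAF (GAGA-associated factor) is the product of Trithorax-like (Trl). It binds GAGAG motifs through a zinc finger, many of them in promoters, where it takes part in opening chromatin. Its POZ domain, also called BTB, joins GAF molecules to one another and to other POZ proteins, while the glutamine-rich Q domain lies at the other end. The wing disc is the larval epithelium that forms the adult wing and notum. It carries myoblasts and tracheal branches, and attached blood cells, fat body or nerve can come along in dissection.

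The libraries held 57673928 to 69871850 reads in genes in delta-POZ and 58011776 to 85575887 in Halo-Trl. Genes of the mitochondrial genome took 20.4% to 28.3% of reads in delta-POZ and 22.4% to 28.9% in Halo-Trl. Of 17 wing disc markers all were detected in every library, with a summed level of 4578 to 5358 CPM (reads scaled to a common library size) in delta-POZ and 4864 to 5916 in Halo-Trl. A library of each of these 2 genotypes stood apart in RNA of another tissue. The 26 nervous tissue markers summed to 2026 CPM in delta-POZ 2, against 564 and 568 in delta-POZ 1 and 3 and 513 to 631 in Halo-Trl. The 14 fat body markers summed to 206 to 476 CPM in delta-POZ, against 6735 in Halo-Trl 1 and 76.9 and 110 in Halo-Trl 2 and 3. In delta-Q 1, 2 and 3, which share the estimate of the spread, they summed to 719, 1453 and 8011 CPM. The 15 muscle markers summed to 310 to 486 CPM in delta-POZ and 235 to 253 in Halo-Trl. Of these sums, Zasp52 alone gave 155 to 191 CPM in delta-POZ and 103 to 116 CPM in Halo-Trl. With delta-POZ 2 and Halo-Trl 1 left out, 7 of the 15 were lower in delta-POZ. Larval cuticle markers summed to 10.5 to 33.2 CPM in delta-POZ, against 1.5 to 2.14 in Halo-Trl. The cuticle gene TwdlT alone gave 15.9, 17.1 and 9.76 CPM of the sums in delta-POZ 1 to 3. In bulk RNA, fewer cells of a type and less RNA per cell cannot be told apart.

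**Figure D1:**
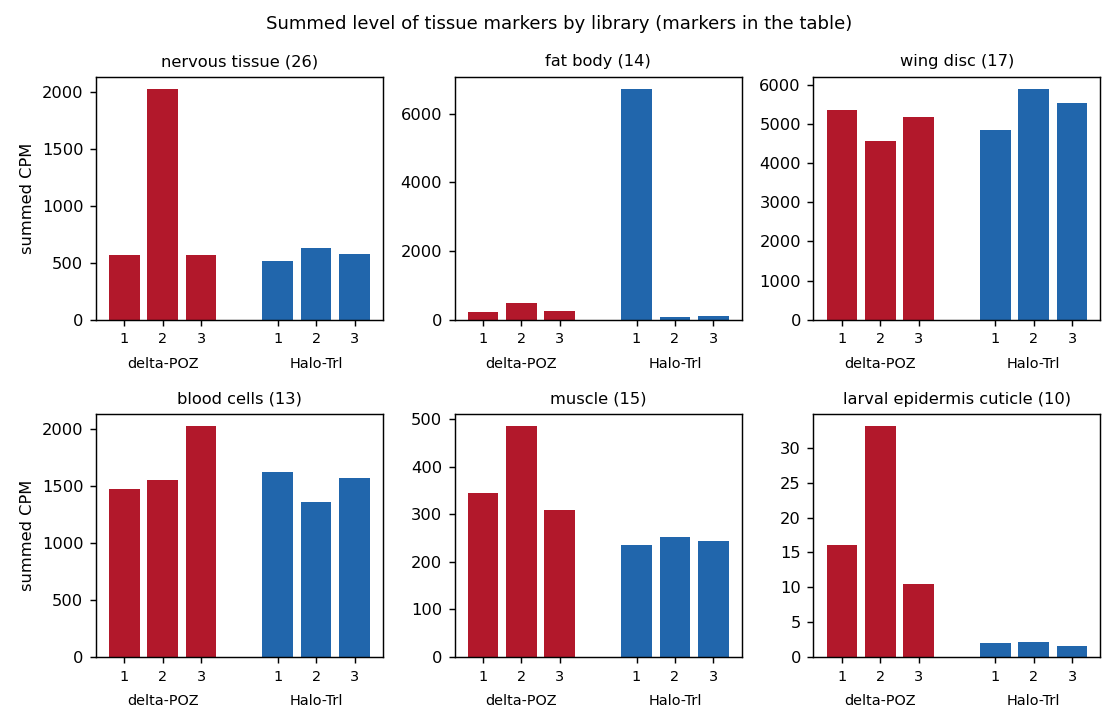
Summed level of tissue markers in each library (CPM, y axis; a bar per library, delta-POZ in red and Halo-Trl in blue, replicates 1 to 3). Delta-POZ 2 is high in nervous tissue markers at 2026 CPM, Halo-Trl 1 is high in fat body markers at 6735 CPM, and the wing disc markers overlap between genotypes.

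Trl reads do not check the deletion, since counts cover the whole gene. Trl was at 78.4, 67.7 and 61.0 CPM in delta-POZ, 56.6, 60.3 and 64.0 CPM in delta-Q, and 51.3, 49.8 and 41.8 CPM in Halo-Trl (delta-POZ over Halo-Trl, log2 0.54, SE 0.12, edgeR adjusted p = 0.0234; overlaps Tsen34 and CG42507). Its call was lost without delta-POZ 1 or 2 (0.0732 and 0.0574) or Halo-Trl 2 or 3 (0.0669 and 0.104), and without the pair of libraries described below (0.0615).

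With all libraries, 1050 genes differed between delta-POZ and Halo-Trl, 10.1% of those tested (edgeR quasi-likelihood test, Benjamini-Hochberg adjusted p under 0.05). Of these, 511 were higher in delta-POZ (4.93%) and 539 were lower (5.2%). The counts in the 2 directions were close, but the sizes were not. Among rises, the median change was 2.45-fold, and 187 genes changed at least 4-fold and 90 at least 16-fold. Among falls, the median was 1.77-fold, with 48 genes past 4-fold and 21 past 16-fold. The median log2 fold change of all genes tested was -0.01, and 49.5% of them lay above 0. When libraries were scaled by their totals alone, 402 genes were higher and 244 lower, so that rises made up 62.2% of the calls, against 48.7% with the scaling used here.

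Rises and falls also differed in level. Below 4 on the log2 CPM scale there were 250 rises and 144 falls, and above it there were 261 rises and 395 falls. The libraries of one genotype all lay above those of the other in 1046 of the 1050 called genes, and in 33% of all genes tested. Separated genotypes thus come with nearly every call and add no support to the single genes described below. The count of called genes fell to 663 without delta-POZ 2, 689 without delta-POZ 3, 487 without Halo-Trl 2 and 411 without Halo-Trl 3.

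**Figure D2:**
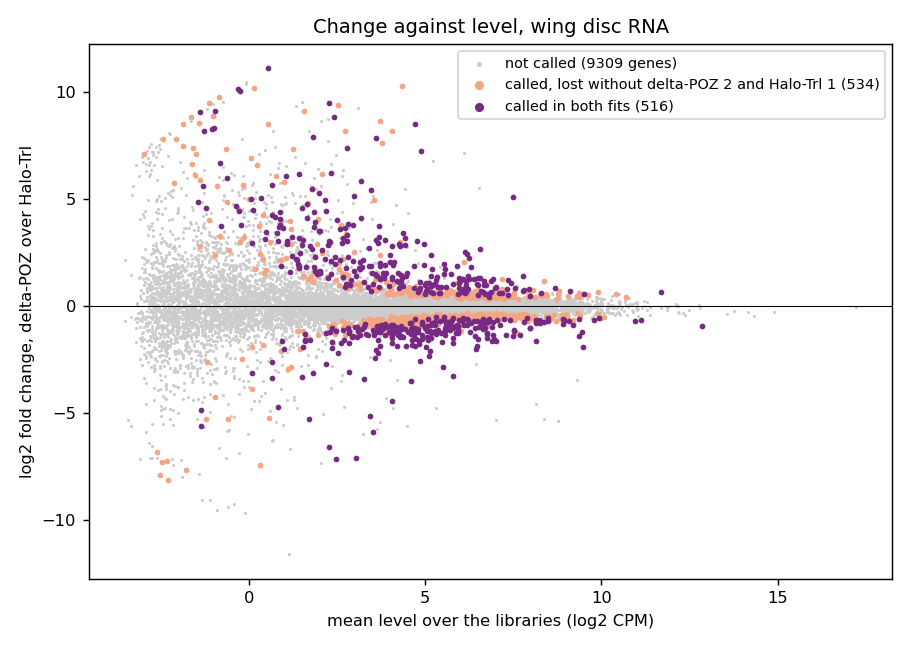
Change of each gene tested (y axis, log2 fold change of delta-POZ over Halo-Trl) against its mean level (x axis, log2 CPM). Purple points are the 516 genes called with all libraries and also without delta-POZ 2 and Halo-Trl 1, orange points are the 534 called only with all libraries, and grey points were not called. Rises reach larger sizes than falls, most of them at low levels.

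The comparison was then repeated without the library with nervous tissue RNA, delta-POZ 2, and the library with fat body RNA, Halo-Trl 1. The 3 delta-Q libraries stayed in this fit, with their fat body RNA. With 2 libraries each of delta-POZ and Halo-Trl, 632 of 10480 genes were called (6.03%). Of the 1050 genes, 516 were called in both fits and in the same direction, which is 4.98% of the genes tested. They comprised 267 rises (2.58%) and 249 falls (2.4%). All 1050 genes had the same sign in both fits. The fits share 4 libraries of these genotypes and the 3 of delta-Q, and so do not check each other.

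The genes called in both fits had the larger changes. Their median log2 fold change was 1.80 for rises with all libraries and 1.78 without the pair, and for falls it was -1.16 and -1.18. The 534 genes that lost their call had smaller changes to begin with, a median of 0.75 for the 244 rises and -0.63 for the 290 falls, and these medians were 0.68 and -0.57 without the pair. In 17 of the lost rises the log2 fold change dropped under 0.5 of its value, and no lost fall did so. Dropping any other pair of 1 delta-POZ and 1 Halo-Trl library also cost calls, leaving 208 to 502 of the 1050. Without each of the 6 libraries in turn, 359 genes kept their call each time (162 rises and 197 falls). The genes given below as having risen or fallen belong to these 359, unless the text says otherwise.

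**Figure D3:**
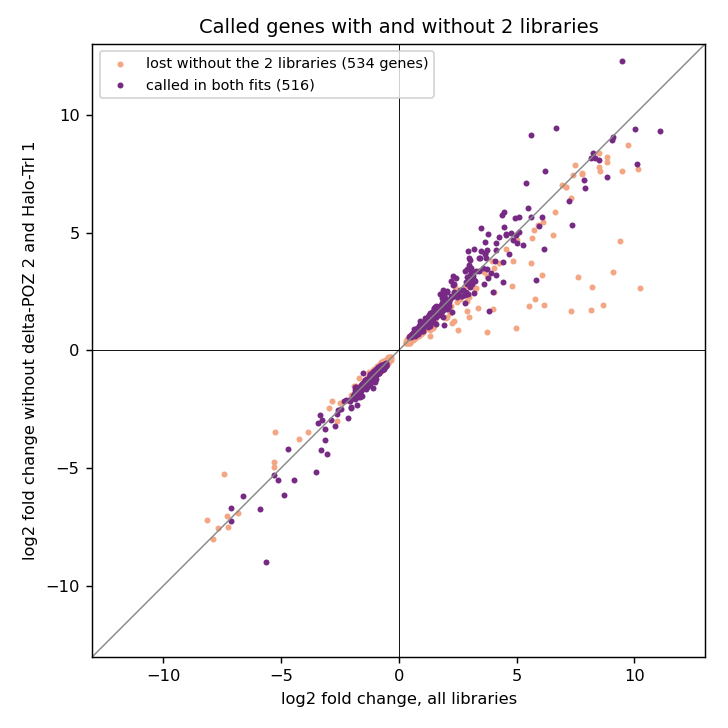
Log2 fold change (delta-POZ over Halo-Trl) of the 1050 called genes with all libraries (x axis) and without delta-POZ 2 and Halo-Trl 1 (y axis); the grey line marks equal values. Genes called in both fits (516, purple) lie along the line, and a group of lost rises (orange) lies well under it.

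Among the rises that shrank were genes used in nerve and endocrine tissue. Genes with delta-POZ 2 at least 5 times both other delta-POZ libraries numbered 30 among the rises, and 6 of these were called in both fits. The enzyme gene spookier (spok), which acts in ecdysone synthesis in the ring gland, was at 0.0580, 183 and 0.711 CPM in delta-POZ 1 to 3 and at 0.0268, 0.0519 and 0.0722 CPM in Halo-Trl 1 to 3. The vesicular acetylcholine transporter gene VAChT (overlapping ChAT) was at 0.348, 50.1 and 0.445 CPM in delta-POZ and at 0.0402, 0.0259 and 0 CPM in Halo-Trl. Both were called with all libraries (edgeR adjusted p = 0.0391 for spok and 0.031 for VAChT), and both lost the call without delta-POZ 2 (0.347 and 0.207). Without Halo-Trl 1, 2 or 3 the adjusted p was 0.11, 0.138 and 0.139 for spok and 0.0845, 0.119 and 0.123 for VAChT. The synaptic vesicle gene Syt1 showed the same pattern, at 11.5, 112 and 14.0 CPM in delta-POZ and 7.63, 5.65 and 3.95 CPM in Halo-Trl, with an adjusted p of 0.0452 that became 0.122 without delta-POZ 2, and 0.0856, 0.142 and 0.163 without Halo-Trl 1, 2 and 3.

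The pan-neuronal gene elav was high in all Halo-Trl libraries. It was at 4.88, 137 and 3.36 CPM in delta-POZ 1 to 3 and at 51.1, 74.0 and 66.9 CPM in Halo-Trl 1 to 3. Delta-POZ 2 lay above every Halo-Trl library and the other delta-POZ libraries lay far below them. With all libraries elav was not called (log2 -0.40, SE 1.07, edgeR adjusted p = 0.856), whereas without delta-POZ 2 and Halo-Trl 1 it was lower in delta-POZ (log2 -4.07, adjusted p = 1.57e-04). Delta-Q discs had 4.45, 9.28 and 9.24 CPM. Reads of elav cannot be told from those of the overlapping genes arg and lncRNA:enrr if counting ignored strand.

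Some genes expressed in nerve and glia rose also in the libraries without excess nervous tissue RNA. The microtubule-associated protein gene futsch was at 60.5, 74.8 and 40.01 CPM in delta-POZ and at 17.7, 17.6 and 18.3 CPM in Halo-Trl (log2 1.71, SE 0.26, edgeR adjusted p = 0.00322; overlaps Gr2a), and the adjusted p was 0.00868 without the pair. The glial surface protein gene wrapper was at 4.17, 7.35 and 2.22 CPM in delta-POZ and at 0.215, 0.298 and 0.469 CPM in Halo-Trl (log2 3.81, SE 0.61, adjusted p = 0.00466). In neither gene did the genotypes overlap, as in nearly every called gene. Most markers of these lists did not follow. Of the 23 nervous tissue markers tested, 3 rose with all libraries, against 4.93% of all genes tested. The median log2 fold change of the 23 was 3.73 with all libraries and 0.64 without the pair. Of the 10 glia markers tested, wrapper was the 1 rise, and nrv2 was lower with all libraries but not in both fits. The glia median was 1.58 with all libraries and -0.07 without the pair, where 5 of the 10 were below 0.

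Among regulators of growth and patterning, the growth-promoting transcription factor gene Myc fell by 73.3%. It was at 251, 236 and 279 CPM in delta-POZ and at 811, 1075 and 985 CPM in Halo-Trl (log2 -1.91, SE 0.18, edgeR adjusted p = 2.84e-04). The groups were far apart and the fall was as large without delta-POZ 2 and Halo-Trl 1 (log2 -1.94). Delta-Q discs had 696, 1039 and 1069 CPM. The zinc-finger gene tiptop (tio), a paralog of teashirt, had 11.8, 13.5 and 12.98 CPM in delta-POZ and 83.7, 99.9 and 96.0 CPM in Halo-Trl (log2 -2.87, SE 0.11, adjusted p = 1.22e-06), with delta-Q between them at 28.5 to 31.2 CPM. Myc and tio each overlap a long non-coding RNA gene.

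The paired zinc-finger genes elbow B (elB) and no ocelli (noc), neighbours that act together in appendage and tracheal development, moved in opposite directions. elB had 12.8, 12.5 and 12.7 CPM in delta-POZ and 49.7, 40.8 and 52.7 CPM in Halo-Trl (log2 -1.91, SE 0.16, edgeR adjusted p = 1.84e-04). noc had 282, 271 and 212 CPM in delta-POZ and 129, 118 and 120 CPM in Halo-Trl (log2 1.06, SE 0.13, adjusted p = 0.00107). Neither gene overlapped between genotypes, as in nearly every called gene. Delta-Q discs were at 32.5 to 46.1 CPM for elB and 126 to 155 CPM for noc. The gene for Xrp1, a stress-responsive transcription factor that acts in cell competition, rose to 154, 138 and 176 CPM in delta-POZ, against 84.2, 84.3 and 88.5 CPM in Halo-Trl (log2 0.86, SE 0.16, adjusted p = 0.00806). In delta-Q, Xrp1 had 171, 137 and 109 CPM.

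Canonical patterning pathways contributed few calls. Over 9 lists of Notch, Wingless, Hedgehog, Dpp, EGFR, Hippo and JAK/STAT signalling, planar cell polarity and apical-basal polarity, 3 of 153 genes tested were higher in delta-POZ and 1 was lower, which is 2.61% against 10.1% of all genes tested. None of the 4 was called in both fits, and 143 of the 153 changed less than 1.5-fold. The median over the 153 genes was 0.07 on the log2 scale. The 4 genes were CycE, E(spl)mbeta-HLH, chinmo and nrv2. A gene outside these lists that codes for a secreted signal, Pvf3, a ligand of the PDGF/VEGF receptor, had 57.9, 67.3 and 50.6 CPM in delta-POZ and 20.8, 22.5 and 26.1 CPM in Halo-Trl (log2 1.34, SE 0.16, edgeR adjusted p = 0.00105; overlaps lncRNA:CR44612). Of 12 cell death genes tested, 0 rose and 1 fell, against 4.93% and 5.2% of all genes tested. The fall was that of dnr1 (log2 -0.74), which lost its call without Halo-Trl 2 or 3 (adjusted p = 0.0655 and 0.0628). Of 15 JNK and wound genes 2 rose with all libraries and 0 did so in both fits, against 4.93% and 2.58% of all genes tested.

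**Figure D4:**
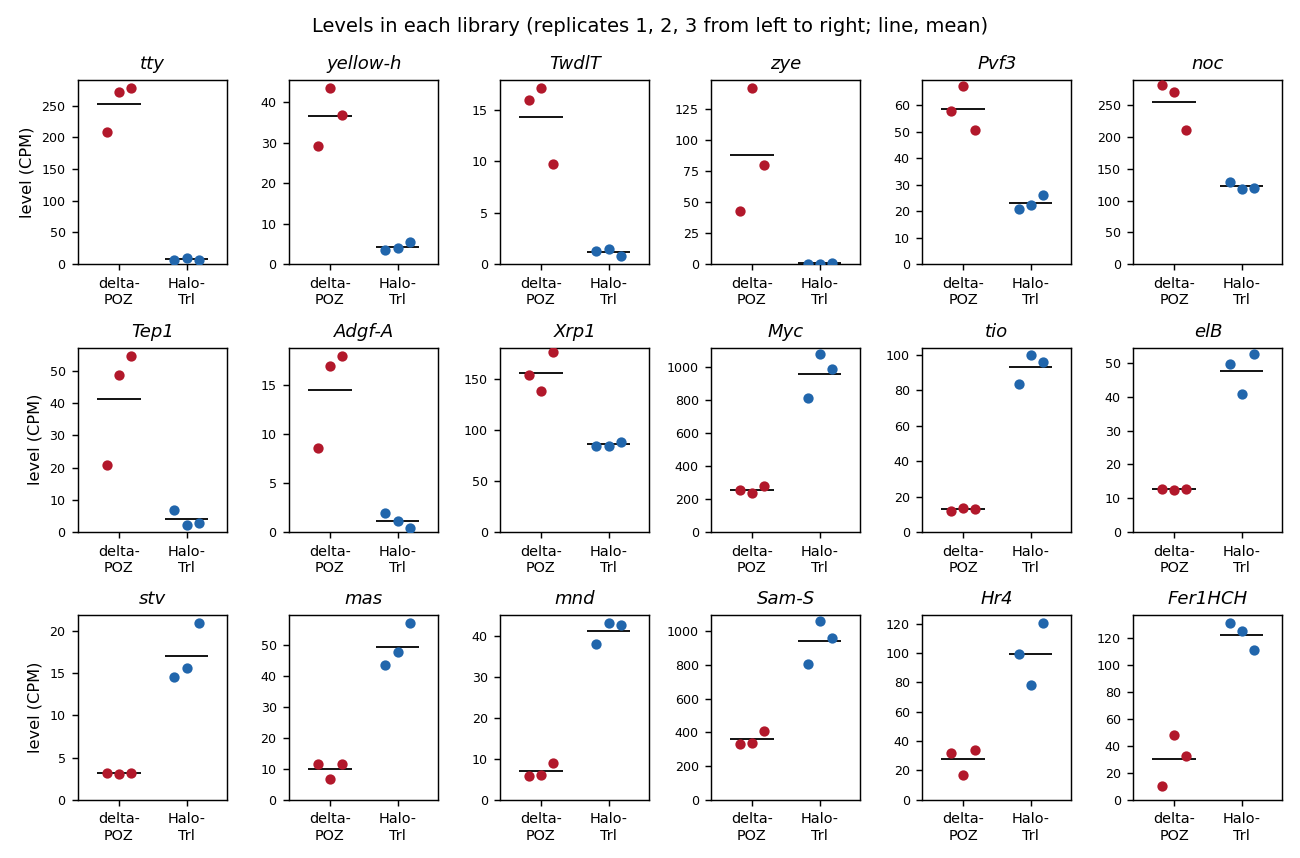
Level (CPM, y axis, linear from 0) of 18 genes in each library, delta-POZ in red and Halo-Trl in blue, with the mean as a line. The upper row and the first 3 genes of the middle row rose in delta-POZ, and the others fell. The genotypes overlap in none of the 18, as in 1046 of the 1050 called genes. Myc was at 236 to 279 CPM in delta-POZ and 811 to 1075 CPM in Halo-Trl.

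Genes of anabolic metabolism were among the falls. Synthesis of purines and pyrimidines gave the highest share: 8 of 15 genes tested fell and none rose, against 5.2% falls among all genes tested, and all 15 had a log2 fold change below 0 under every scaling tried (median -0.59). The IMP dehydrogenase gene raspberry (ras), which commits purines to guanine nucleotides, was at 106, 97.6 and 114 CPM in delta-POZ and at 240, 238 and 236 CPM in Halo-Trl (log2 -1.17, SE 0.09, edgeR adjusted p = 1.43e-04; overlaps Rph, stx and a long non-coding RNA). Only ras was called in both fits. The ribonucleotide reductase gene RnrL (log2 -0.59), the adenylosuccinate lyase gene AdSL (-0.61) and Prat (-0.73), which codes for the first enzyme of purine synthesis, kept their calls without each single library and lost them without the pair (adjusted p = 0.0526, 0.0875 and 0.0551). The list counted 4 falls without delta-POZ 1, 2 or 3 and with scaling by library totals alone, and 5 to 6 without any 1 Halo-Trl library.

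Methyl-group and polyamine synthesis also held large falls. The S-adenosylmethionine synthetase gene Sam-S had 332, 339 and 410 CPM in delta-POZ and 803, 1058 and 962 CPM in Halo-Trl (log2 -1.39, SE 0.18, edgeR adjusted p = 0.00144). The spermidine synthase gene SpdS had 5.80, 5.39 and 9.08 CPM in delta-POZ and 18.4, 27.9 and 28.2 CPM in Halo-Trl (log2 -1.88, SE 0.31, adjusted p = 0.00479; overlaps Scm). The highest delta-POZ library was well under the lowest Halo-Trl library for both, and separated genotypes come with nearly every call. Of the 12 genes tested for serine, one-carbon and methionine metabolism, 3 fell, against 5.2% of all genes tested. Sam-S alone remained in both fits. Without any 1 library the list counted 1 or 2 falls.

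Transporters of amino acids changed in both directions. Of 19 tested, 3 rose and 2 fell, against 4.93% and 5.2% of all genes tested. In both fits 2 rises and 2 falls were called, against 2.58% and 2.4% of all genes tested. The leucine transporter gene minidiscs (mnd), needed for disc growth, was at 5.83, 6.07 and 8.98 CPM in delta-POZ and at 38.0, 43.2 and 42.6 CPM in Halo-Trl (log2 -2.57, SE 0.29, edgeR adjusted p = 7.60e-04), while delta-Q discs had 22.5 to 50.1 CPM. The other fall was that of JhI-21, at 0.681, 1.18 and 0.622 CPM in delta-POZ, 2.74, 3.28 and 1.85 CPM in delta-Q, and 26.2, 28.5 and 32.2 CPM in Halo-Trl. CG13384 had 114, 177 and 165 CPM in delta-POZ and 83.1, 77.2 and 73.1 CPM in Halo-Trl (log2 0.97, SE 0.15, adjusted p = 0.00426). CG1139 had 24.1, 14.5 and 14.6 CPM in delta-POZ and 2.66, 3.35 and 6.08 CPM in Halo-Trl (log2 2.14, SE 0.34, adjusted p = 0.00444). Groups overlapped for none of these 4 genes, as in 1046 of the 1050 called genes.

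Some mitochondrial genes fell. The citrate synthase gene knockdown (kdn) had 70.8, 65.7 and 68.2 CPM in delta-POZ and 120, 143 and 138 CPM in Halo-Trl (log2 -0.97, SE 0.10, edgeR adjusted p = 4.23e-04). Of the 20 genes tested in the TCA list, 3 fell with all libraries, against 5.2% of all genes tested. Only kdn was called in both fits, and without any 1 library 1 to 3 fell. The matrix chaperones fell with it: Hsp60A to 76.02, 75.8 and 79.7 CPM in delta-POZ, against 146, 151 and 157 CPM in Halo-Trl (log2 -0.97, SE 0.14, adjusted p = 0.00219), and Hsc70-5 by 0.74 on the log2 scale (SE 0.13, adjusted p = 0.00687). Together, 4 of 11 genes of mitochondrial import and dynamics fell and 0 rose, against 5.2% falls and 4.93% rises among all genes tested. In both fits 3 fell, against 2.4% of all genes tested, and 2 or 3 remained without any 1 library. The outer membrane channel gene Tom40 (log2 -0.81, adjusted p = 0.011) lost its call without Halo-Trl 2 (adjusted p = 0.0507).

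Among mitochondrial carriers, tested together with pyruvate carboxylase, 1 of 18 genes rose and 3 fell, against 4.93% and 5.2% of all genes tested. In both fits 1 rise and 2 falls were called, against 2.58% and 2.4% of all genes tested. The genes in both fits were the aspartate-glutamate carrier aralar1 and the pyruvate carboxylase PCB, which fell, and the pyrimidine nucleotide carrier Rim2, which rose. aralar1 had 0.116, 0.632 and 0.267 CPM in delta-POZ, 20.4, 10.7 and 10.6 CPM in delta-Q, and 18.5, 20.6 and 20.4 CPM in Halo-Trl. PCB had 1.06, 3.53 and 0.415 CPM in delta-POZ, 9.66, 12.0 and 16.8 CPM in delta-Q, and 39.7, 35.9 and 31.6 CPM in Halo-Trl. In both genes the fall was larger without delta-POZ 2 and Halo-Trl 1 (log2 -6.71 and -5.49) than with all libraries (-5.88 and -4.43), since delta-POZ 2 was the highest delta-POZ library. Rim2 rose to 51.8, 45.8 and 49.6 CPM in delta-POZ, against 32.5, 32.5 and 31.0 CPM in Halo-Trl (log2 0.62, SE 0.10, edgeR adjusted p = 0.00441). In delta-Q, Rim2 had 48.7, 50.7 and 44.8 CPM.

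Gbs-76A, which codes for a glycogen-targeting subunit of protein phosphatase 1, was at 1.88, 11.9 and 1.30 CPM in delta-POZ and at 52.5, 62.0 and 53.9 CPM in Halo-Trl (log2 -3.49, SE 0.72, edgeR adjusted p = 0.0149). The fatty acid desaturase gene Desat1 had 320, 289 and 293 CPM in delta-POZ and 174, 183 and 180 CPM in Halo-Trl (log2 0.75, SE 0.11, adjusted p = 0.00292). It was the only call among 13 genes of fatty acid and triglyceride synthesis, against 10.1% of all genes tested. Of 12 glycolysis genes 1 fell, Hex-A, against 5.2% of all genes tested. Hex-A lost the call without the pair (adjusted p = 0.141), and without delta-POZ 2 or 3 (0.0756 and 0.05003) or Halo-Trl 2 or 3 (0.0709 and 0.0541). Of 17 genes of fatty acid oxidation and lipolysis 3 fell and 0 did so in both fits, against 5.2% and 2.4% of all genes tested. The trehalose synthase gene Tps1 had a log2 value of -7.35 with all libraries and 4.50 without Halo-Trl 1, and was called in neither fit.

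Both ferritin genes, which code for the iron storage protein, were lower in delta-POZ with all libraries. The ferritin heavy chain gene Fer1HCH was at 10.3, 48.2 and 31.99 CPM in delta-POZ and at 130, 125 and 111 CPM in Halo-Trl (log2 -2.02, SE 0.42, edgeR adjusted p = 0.0149), with delta-Q at 97.2 to 116 CPM. The light chain gene Fer2LCH had 3.80, 18.1 and 9.04 CPM in delta-POZ and 39.8, 29.1 and 36.7 CPM in Halo-Trl (log2 -1.77, SE 0.44, adjusted p = 0.0309). Fer2LCH lost its call without delta-POZ 3 (adjusted p = 0.0962) and without Halo-Trl 1, 2 or 3 (0.0713, 0.066 and 0.0958). The 2 genes overlap on the reference, so they are not independent if counting ignored strand. They were the 2 falls among 9 genes of metal handling tested, against 5.2% of all genes tested. The median log2 fold change of the 9 was 0.35. The 1 rise there, Mvl, a metal ion transporter gene (log2 0.71, adjusted p = 0.0322), lost its call without the pair (0.055), and without delta-POZ 2 or 3 or any Halo-Trl library (0.0524 to 0.12).

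Of 21 nucleoporin genes tested, whose products build the nuclear pore, 7 fell with all libraries, against 5.2% of all genes tested, and 0 were called in both fits. The log2 fold change was below 0 for each of the 21 under every scaling tried (-0.76 to -0.17, median -0.43). None of the 7 remained without delta-POZ 2 and Halo-Trl 1, where 19 of the 21 were still below 0, and without Halo-Trl 3 or with scaling by library totals alone the count was 0. It was 3 without delta-POZ 2 or 3 or Halo-Trl 2, and 4 without delta-POZ 1 or Halo-Trl 1. Nucleolar Mybbp1A showed a larger change, at 11.2, 11.1 and 11.7 CPM in delta-POZ and 45.2, 49.8 and 49.9 CPM in Halo-Trl (log2 -2.09, SE 0.15, edgeR adjusted p = 9.05e-05; overlaps Dredd). The translation initiation factor gene eIF3b fell to 682, 648 and 618 CPM in delta-POZ, against 985, 1081 and 1039 CPM in Halo-Trl (log2 -0.67, SE 0.10, adjusted p = 0.00257).

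Vacuolar ATPase (21 genes tested) gave no call in either direction, and neither did Wingless (25), Hedgehog (14), Dpp (16) or EGFR signalling (21). Among all genes tested 10.1% were called. Insulin and TOR signalling gave 2 falls of 24, a share near the 5.2% of all genes tested: the TOR inhibitor gene chrb, which remained in both fits, and Pdk1, which did not. chrb was at 450, 388 and 354 CPM in delta-POZ, 633, 845 and 878 CPM in delta-Q, and 854, 978 and 963 CPM in Halo-Trl. Of 19 autophagy genes 2 rose and 0 fell, against 4.93% and 5.2% of all genes tested, and neither rise was called in both fits.

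**Figure D5:**
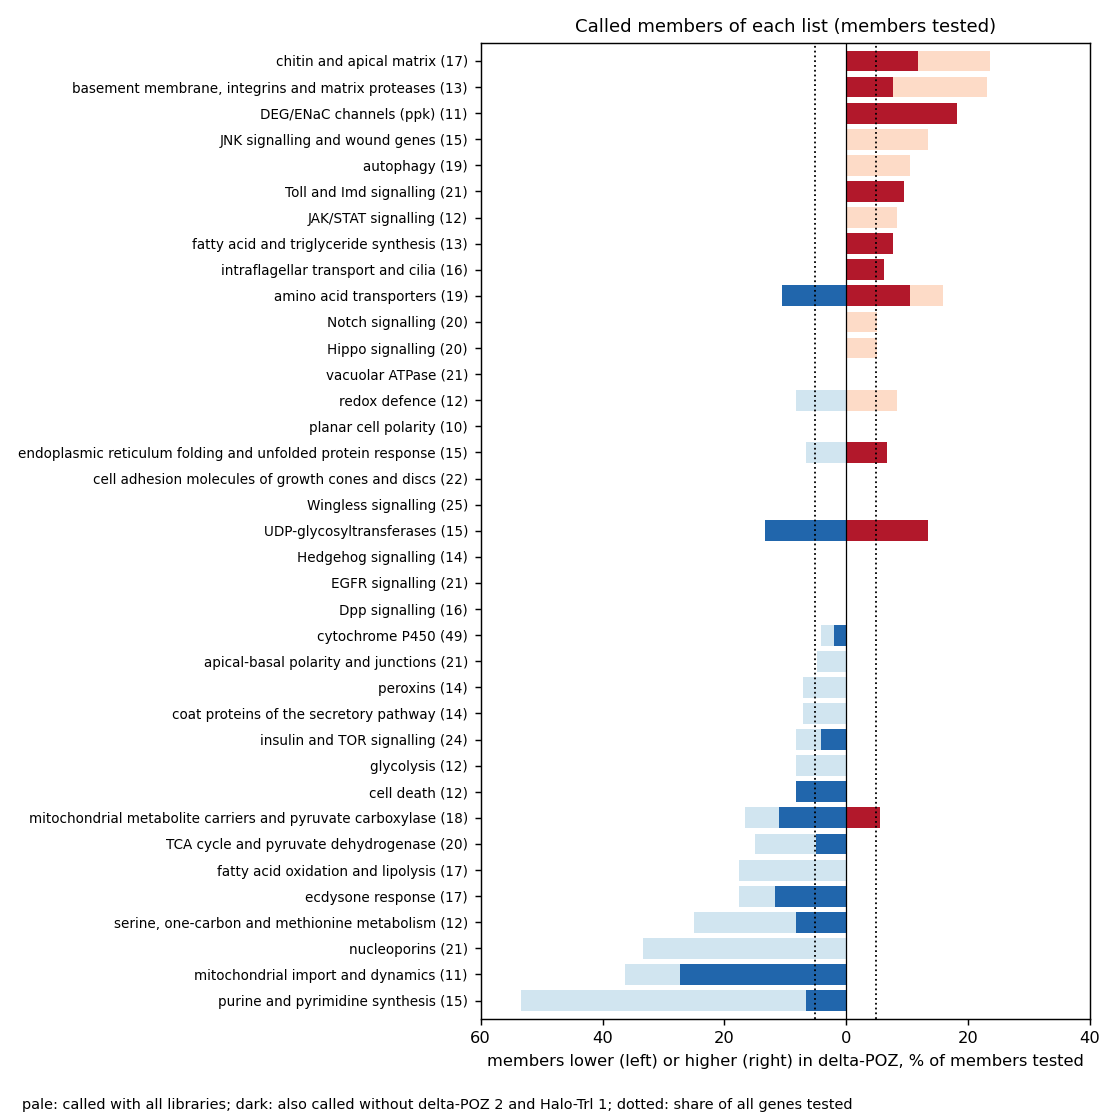
Share of the members tested (x axis, %) called lower (left, blue) or higher (right, red) in delta-POZ for each pathway or family list with at least 10 members tested; pale bars use all libraries, dark bars also require the call without delta-POZ 2 and Halo-Trl 1, and dotted lines mark all genes tested (5.2% lower, 4.93% higher). Purine and pyrimidine synthesis has the longest bar to the left, with 8 of 15 members, of which 1 is dark.

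Some genes of cuticle and apical matrix rose. This matrix is the chitin-based layer that epidermis and, later, the disc epithelium secrete. Of 17 genes of chitin and apical matrix tested, 4 rose, against 4.93% of all genes tested, and none fell. In both fits 2 rose, against 2.58% of all genes tested. The median log2 fold change was 0.31, 5 of the 17 were below 0, and without any 1 library 1 to 3 rose. The chitinase gene Cht5 had 110, 88.4 and 100 CPM in delta-POZ and 38.2, 38.6 and 48.9 CPM in Halo-Trl (log2 1.25, SE 0.17, edgeR adjusted p = 0.0017). Cpr100A, a chitin-binding cuticle protein gene, had 25.7, 21.6 and 18.6 CPM in delta-POZ and 1.02, 0.571 and 0.289 CPM in Halo-Trl (log2 5.12, SE 0.49, adjusted p = 2.95e-04), with delta-Q at 0.906 to 1.89 CPM. The Tweedle cuticle protein gene TwdlT had 15.9, 17.1 and 9.76 CPM in delta-POZ and 1.26, 1.48 and 0.830 CPM in Halo-Trl (log2 3.58, SE 0.45, adjusted p = 0.00125; overlaps RYa-R). In these families, chosen after their values were seen, 5 of 28 Cpr genes rose, against 4.93% of all genes tested. The count was 3 in both fits and 2 to 4 without any 1 library, and 11 of the 28 were below 0. Of 9 Tweedle genes tested 1 rose, TwdlT itself, and 3 were below 0.

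Cht5, Cpr100A and TwdlT were above every Halo-Trl library in each delta-POZ library, a separation found in nearly every called gene. The gene zye, also far higher in delta-POZ, was at 42.4, 141 and 79.6 CPM in delta-POZ, 0.814 to 1.10 CPM in delta-Q, and 0.241, 0.415 and 1.16 CPM in Halo-Trl (log2 7.23, SE 0.64, edgeR adjusted p = 2.20e-04). The summed larval cuticle markers were at 16.0, 33.2 and 10.5 CPM in delta-POZ and 2.01, 2.14 and 1.5 CPM in Halo-Trl. TwdlT is itself one of those 10 markers and alone gave 15.9, 17.1 and 9.76 CPM of the delta-POZ sums. The sum therefore does not stand apart from TwdlT. Lcp1 added 9.05 CPM in delta-POZ 2 and was at 0 in delta-POZ 1 and 3. Of the 10 markers, 4 to 8 were at 0 in each delta-POZ library and 5 or 6 in each Halo-Trl library. Their part in the result was not tested.

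In the yellow family, secreted proteins named for the body colour gene, 4 of 10 genes tested rose and none fell. Among all genes tested 4.93% rose, and the family was chosen after its values were seen. yellow-h had 29.3, 43.5 and 36.8 CPM in delta-POZ, 2.40 to 3.22 CPM in delta-Q, and 3.42, 3.97 and 5.47 CPM in Halo-Trl (log2 3.09, SE 0.24, edgeR adjusted p = 9.59e-05; overlaps an antisense RNA). yellow-b rose by 1.01 on the log2 scale (SE 0.18, adjusted p = 0.00785; overlaps ppk17). yellow-e2 rose by 0.89 (SE 0.17, adjusted p = 0.01), a call lost without Halo-Trl 3 (0.0536). yellow itself (y) had 102 reads in all over the delta-POZ libraries and 0 in Halo-Trl (edgeR adjusted p = 0.011). Against a floor of 3 reads over the group the ratio was 35.8, and the 95% counting interval began at 28.6. Delta-Q discs had 0.131 to 1.00 CPM. Mutant alleles of y are common in laboratory stocks, and such a difference between the lines cannot be told apart from the deletion.

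Several genes of phagocytic blood cells rose, and prophenoloxidase genes did not move together. The CD36-family receptor gene croquemort (crq) had 102, 146 and 158 CPM in delta-POZ and 74.2, 66.0 and 62.7 CPM in Halo-Trl (log2 1.00, SE 0.16, edgeR adjusted p = 0.00489; overlaps ex). The scavenger receptor gene Sr-CIII had 1.94, 6.02 and 4.93 CPM in delta-POZ and 0.268, 0.311 and 0.180 CPM in Halo-Trl (log2 4.07, SE 0.66, adjusted p = 0.00468). By contrast, the prophenoloxidase gene PPO2 had 2.06, 5.12 and 10.3 CPM in delta-POZ, 53.1, 193 and 64.8 CPM in delta-Q, and 69.3, 48.1 and 49.7 CPM in Halo-Trl (log2 -3.26, SE 0.62, adjusted p = 0.0103).

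Of the 13 blood cell markers tested, 4 rose (NimC1, He, crq and Sr-CI) and 1 fell (PPO2), against 4.93% and 5.2% of all genes tested. All were called in both fits, but without Halo-Trl 2 or 3 only 1 rise remained. NimC1, He and Sr-CI lost their calls there (edgeR adjusted p = 0.0704, 0.0596 and 0.0721 without Halo-Trl 2 and 0.0672, 0.0665 and 0.0775 without Halo-Trl 3). The summed markers overlapped between genotypes, at 1474, 1556 and 2029 CPM in delta-POZ and 1621, 1362 and 1576 CPM in Halo-Trl. The abundant markers did not separate the genotypes: Hml was at 79.2, 241 and 323 CPM in delta-POZ and 173, 72.7 and 88.3 CPM in Halo-Trl (adjusted p = 0.368), and Pxn gave an adjusted p of 0.533. Delta-POZ 1 was the lowest delta-POZ library for NimC1, He, Sr-CI, Hml and Pxn. The part of blood cell number in these changes was not tested.

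Some genes of secreted immune proteins and an integrin subunit gene also changed. The thioester protein gene Tep1 had 20.7, 48.8 and 54.7 CPM in delta-POZ and 6.73, 2.31 and 2.78 CPM in Halo-Trl (log2 3.39, SE 0.51, edgeR adjusted p = 0.00311), and Tep4 rose by 0.78 on the log2 scale (SE 0.14, adjusted p = 0.00895). Its relative Tep2 fell to 8.06, 14.2 and 10.0 CPM in delta-POZ, against 59.4, 24.5 and 28.9 CPM in Halo-Trl (log2 -1.80, SE 0.33, adjusted p = 0.00954; overlaps CG43235). The adenosine deaminase gene Adgf-A, active in blood cells, had 8.62, 16.9 and 18.0 CPM in delta-POZ and 1.90, 1.09 and 0.451 CPM in Halo-Trl (log2 3.65, SE 0.49, adjusted p = 0.00181; overlaps Adgf-A2). The integrin subunit gene ItgaPS5 had 24.9, 49.4 and 65.8 CPM in delta-POZ and 7.15, 6.37 and 5.89 CPM in Halo-Trl (log2 2.85, SE 0.33, adjusted p = 7.76e-04). In Toll and Imd signalling 2 of 21 genes rose and 0 fell, against 4.93% and 5.2% of all genes tested. The 2 were the inhibitor gene cact and the ligand gene spz, both called in both fits. Both calls were lost without Halo-Trl 2 (adjusted p = 0.0647 and 0.141) or Halo-Trl 3 (0.0524 and 0.148). That of spz was also lost without delta-POZ 2 (0.0979) or delta-POZ 3 (0.101).

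Of 3 antimicrobial peptide genes tested, 0 were called, against 10.1% of all genes tested. Of 15 muscle markers tested 3 rose, 2 of them in both fits, against 4.93% and 2.58% of all genes tested. The myosin light chain gene Mlc2 had 26.9, 45.8 and 22.8 CPM in delta-POZ and 9.21, 11.7 and 11.4 CPM in Halo-Trl (log2 1.56, SE 0.25, edgeR adjusted p = 0.00434). The median over the muscle markers was 1.87 with all libraries and 0.01 without delta-POZ 2 and Halo-Trl 1.

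Among the large rises were genes of ion channels. The DEG/ENaC channel gene ppk13 was at 37.7, 38.7 and 44.8 CPM in delta-POZ, 44.9, 29.4 and 41.1 CPM in delta-Q, and 0.0268, 0.233 and 0.0542 CPM in Halo-Trl. tweety (tty), of a family of anion channels, had 208, 272 and 278 CPM in delta-POZ, 265, 311 and 279 CPM in delta-Q, and 7.15, 9.03 and 5.92 CPM in Halo-Trl (log2 5.10, SE 0.19, edgeR adjusted p = 1.22e-06). tty and tio had the smallest p-values of all genes tested. Both deletion lines are set against the same Halo-Trl libraries. The second DEG/ENaC gene called, rpk, had 25.1, 19.9 and 23.2 CPM in delta-POZ and 8.78, 11.8 and 10.7 CPM in Halo-Trl (log2 1.13, SE 0.18, adjusted p = 0.004), among 11 ppk-family genes tested. In delta-Q, rpk had 21.3, 29.2 and 22.2 CPM. In all, 2 of the 11 ppk-family genes rose and 0 fell, against 4.93% and 5.2% of all genes tested. Of 16 genes of intraflagellar transport and cilia 1 was called, against 10.1% of all genes tested. It was Oseg5, at 8.32, 6.48 and 9.47 CPM in delta-POZ and at 0.0268, 0 and 0 CPM in Halo-Trl. In delta-Q, Oseg5 had 7.5, 4.9 and 6.3 CPM.

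Other large rises had a low library in delta-POZ. CG1208 was at 1.45, 33.1 and 9.47 CPM in delta-POZ and at most 0.0722 CPM in Halo-Trl (log2 8.85, SE 1.44, edgeR adjusted p = 0.0047), and CG15347 was at 3.42, 19.9 and 6.12 CPM in delta-POZ and at most 0.0542 CPM in Halo-Trl (log2 7.90, SE 0.95, adjusted p = 0.00103). For the adenylyl cyclase gene Ac78C levels were 2.03, 8.51 and 5.59 CPM in delta-POZ and at most 0.163 CPM in Halo-Trl (log2 6.07, SE 1.02, adjusted p = 0.00544). Delta-POZ 2 was the highest library for these 3 genes, yet all were also called without it. By contrast, Ank2, qvr and Nrx-1, genes used by neurons, were called in both fits but lost their calls without Halo-Trl 2 (adjusted p = 0.119, 0.0526 and 0.0842) or Halo-Trl 3 (0.123, 0.0541 and 0.0906), and Ank2 and Nrx-1 also without delta-POZ 2 (0.105 and 0.0704); Ank2 lost its call without Halo-Trl 1 as well (0.0606). Among the 233 rises in both fits with a mean log2 CPM of at least 1, the highest delta-POZ library was a median of 1.46 times the lowest, and in 16 it was at least 5 times. Among the 242 such falls, the highest Halo-Trl library was a median of 1.20 times the lowest, and in none was it 5 times.

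Of 15 UDP-glycosyltransferases tested, 2 rose and 2 fell, against 10.1% called among all genes tested, and all 4 were called in both fits. The 2 that fell, Ugt302K1 and Ugt302C1, are neighbours on the chromosome. Ugt50B3 had 22.1, 22.3 and 19.2 CPM in delta-POZ and 8.85, 5.58 and 7.83 CPM in Halo-Trl (log2 1.51, SE 0.19, edgeR adjusted p = 0.00144; overlaps TpnC4). Ugt302K1 had 0.927, 1.18 and 0.637 CPM in delta-POZ, 0.651 to 2.78 CPM in delta-Q, and 8.37, 7.69 and 8.21 CPM in Halo-Trl (log2 -3.14, SE 0.51, adjusted p = 0.00485). Of 49 cytochrome P450 genes 0 rose and 2 fell, below the share of falls among all genes tested; without Halo-Trl 1, 4 rose and 1 fell. The co-chaperone gene starvin (stv), of the BAG family, had 3.14, 3.03 and 3.20 CPM in delta-POZ and 14.6, 15.7 and 20.96 CPM in Halo-Trl (log2 -2.45, SE 0.18, adjusted p = 9.05e-05), with delta-Q at 14.1 to 16.5 CPM.

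Ecdysone, the moulting hormone, drives the larval to pupal change that discs of this age are entering. Of 17 ecdysone response genes tested, 3 fell and 0 rose, against 5.2% falls among all genes tested, and 2 of the 3 were called in both fits (2.4% of all genes tested). The median log2 fold change of the 17 was -0.02. The nuclear receptor gene Hr4 had 31.6, 17.2 and 34.2 CPM in delta-POZ, 153, 153 and 104 CPM in delta-Q, and 99.5, 78.2 and 121 CPM in Halo-Trl (log2 -1.85, SE 0.27, edgeR adjusted p = 0.00267; overlaps PIG-K and CR46447). MsrA, a methionine sulfoxide reductase gene induced by ecdysone, had 10.7, 12.3 and 12.0 CPM in delta-POZ and 23.8, 19.1 and 21.01 CPM in Halo-Trl (log2 -0.87, SE 0.14, adjusted p = 0.0047). Delta-POZ was below every Halo-Trl library for both, a separation found in nearly every called gene. Blimp-1 fell by 1.25 on the log2 scale with all libraries (adjusted p = 0.0229) and lost the call without delta-POZ 3, Halo-Trl 1 or Halo-Trl 3 (0.0618, 0.0553 and 0.0955).

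At the cell surface, the serine protease homolog gene masquerade (mas) had 11.6, 6.68 and 11.5 CPM in delta-POZ and 43.6, 47.7 and 57.1 CPM in Halo-Trl (log2 -2.31, SE 0.26, edgeR adjusted p = 7.76e-04). The discoidin-domain receptor gene Ddr had 3.77, 7.35 and 2.02 CPM in delta-POZ, 11.5, 19.1 and 10.7 CPM in delta-Q, and 16.1, 21.2 and 21.8 CPM in Halo-Trl (log2 -2.17, SE 0.42, adjusted p = 0.0113; overlaps several genes, among them AANATL2). Of 13 genes of basement membrane, integrins and matrix proteases, 3 rose with all libraries, 1 of them in both fits, and none fell. Among all genes tested 4.93% rose, and 2.58% rose in both fits. Without Halo-Trl 3 the count was 0, and without any 1 other library it was 1 or 2.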

How the data were processed

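Raw read counts per gene, as deposited by the authors, were available for 17868 genes and 9 wing disc libraries. Per the submitters' processing notes, featureCounts and DESeq2 were used. Their versions, the aligner, the build and the strand setting are not stated in these sources. No row of the table is a total or unassigned class. The quasi-likelihood test of edgeR 4.0.16 (R 4.3.3, limma 3.58.1) was fitted on all 9 libraries (3 per genotype), with TMM scaling and the package's filter on low counts. P-values were adjusted by Benjamini-Hochberg over 10359 genes and called under 0.05 with no minimum fold. All replicates differed from one another by more than counting error (chi-square divided by its degrees of freedom, 54.8 to 852). CPM use the effective library size. The SE of a log2 fold change is its size divided by the square root of F. A gene is called in both fits when it was also called, in the same direction, without delta-POZ 2 and Halo-Trl 1. Ratios against 3 reads or fewer cover counting error only.

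The members and lists (42 pathways or families, 12 marker lists) were chosen with earlier results of these data known, and 7 families were added after their values were seen. Lists are described by counts and medians, with no test of a list. Genes were named by a rule: Trl; the 12 largest rises and 12 largest falls called in both fits, with separated genotypes and a mean log2 CPM not under 1; the 6 most read-rich in each direction; up to 3 called members per list; and the 4 largest in each direction that lost their call. Further genes (among them Myc, tio, elB, noc, tty, stv, mas, Ddr, elav, y and the blood cell and cuticle genes) were named after their values were seen. Not all genes the rule allows are printed.

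Of the gene names, 17803 matched RefSeq's genes for the assembly Release 6 plus ISO1 MT, used only for names, overlaps and neighbours; 2 names in the lists (Tkt and IFT74) found no match. Reads of overlapping genes cannot be assigned by strand here. The edgeR test was tested on simulated counts with known changes. Alternatives were other scalings, filters and thresholds, DESeq2 1.42.0, a replicate block, leaving out libraries, and leaving out 1 library of each genotype in the 8 other combinations, the last chosen after the data were seen. The other processed files were not used.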

Additional observations from a re-analysis of the deposited data

How the results depend on the processing

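The count of 1050 called genes stayed between 951 and 1214 with DESeq2's size factors, upper-quartile scaling, mitochondrial genes left out, no filter on low counts, a minimum of 1 CPM in 3 libraries, only the 6 libraries in the fit, or a replicate block. It was 646 with library totals alone, 1729 with the DESeq2 Wald test (924 higher, 805 lower), 270 when tested against a minimum fold of 1.5, 357 at an adjusted p under 0.01, and 632 without delta-POZ 2 and Halo-Trl 1 together. Without single replicates it ranged from 411 to 827, and over the 8 other pairs of 1 library per genotype from 208 to 627. The cause of these differences was not tested. In all 9 fits that leave out such a pair, 158 of the 1050 genes were called. Scalings moved the median of all genes by at most 0.06 on the log2 scale.

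Replicate numbers were not shown to pair the libraries, since deviations of same-numbered delta-POZ and Halo-Trl libraries correlated at -0.08, -0.07 and 0.01; with the replicate block 951 genes were called (436 higher, 515 lower). Of 161 called genes among those named by rule or by choice, 39 kept their call under every alternative tried, and 0 changed sign. Genes without a call changed sign in 12 values. Tps1 (log2 -7.35) ranged from -12.48 to 5.09 over fits with libraries left out and was 5.07 without the pair, Def ranged from -0.909 to 0.0322, Vang from -0.0384 to 0.18, and elav (-0.40) from -3.95 to 0.26 with -4.07 without the pair. Trl itself (log2 0.54) lost its call without delta-POZ 1 or 2 or Halo-Trl 2 or 3 (adjusted p up to 0.104). At these depths, genes below a mean log2 CPM of 0 gave 58 calls of 2435, and differences there rest on few reads.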

Other observations

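Called genes were also placed in order along the reference. Of 508 genes that rose and could be placed on the reference, 91 (17.9%) had a next tested gene, not overlapping them, that also rose, as had 7.46% of the 9280 genes not called. For falls the shares were 10.4% and 8.05%. These shares were not tested against each other. The longest run was of 5 neighbouring rises: CG15747, lncRNA:CR45708, lncRNA:CR45709, Syt12 and dmrt11E. Of these, 4 were called in both fits, and no 2 of them overlap. The synaptotagmin gene Syt12 had 14.4, 17.1 and 20.0 CPM in delta-POZ and 5.002, 7.65 and 4.98 CPM in Halo-Trl (log2 1.55, SE 0.25, edgeR adjusted p = 0.00495). lncRNA:CR45709 had 228 reads in delta-POZ and 2 in Halo-Trl, a ratio of 120 (95% counting interval 32.9 to 997). CG15747 lost its call without delta-POZ 2 or Halo-Trl 3 (adjusted p = 0.0506 and 0.0781), lncRNA:CR45708 without delta-POZ 1 or 3 or Halo-Trl 1 or 2 (0.0539 to 0.119), and dmrt11E without any 1 library other than delta-POZ 2 (0.0534 to 0.0883). A run of 3 rises held the Toll ligand gene NT1 (24.2, 19.3 and 21.5 CPM in delta-POZ, against 5.82, 6.47 and 9.82 CPM in Halo-Trl; log2 1.55, adjusted p = 0.00277), the receptor tyrosine kinase gene Tie (43.7, 44.6 and 42.2 CPM in delta-POZ, against 21.3, 19.5 and 21.2 CPM in Halo-Trl; log2 1.08, adjusted p = 3.78e-04) and CG11353, whose call was lost without any 1 library (adjusted p 0.0689 to 0.106).

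By class of RNA, 10.7% of 9345 protein-coding genes were called, among 472 long non-coding RNA genes 6.14% (19 higher, 10 lower), and among 177 antisense RNA genes 1.69%. Of 169 snoRNA genes 9 were lower (5.3%, near the 5.2% of all genes tested) and 0 higher (4.93% of all genes tested). Most snoRNAs lie within other genes, whose reads cannot be told from theirs. Of the genes tested, 58 had at most 3 reads over the delta-POZ libraries, of which 10 were called. Another 119 had at most 3 reads over the Halo-Trl libraries, of which 32 were called. Among all genes tested 10.1% were called. Such genes passed the filter on low counts only through the libraries of other genotypes, so these counts are no result about them. obst-J, which codes for a chitin-binding protein, had 191 reads in delta-POZ and 0 in Halo-Trl (overlaps gig). Against 3 reads the ratio was 67.1, and the 95% counting interval began at 54.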
